A study of Homo sapiens with 6 samples.

Results

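The genes described here encode adhesive and matricellular glycoproteins: fibronectin (FN1), the thrombospondins (THBS1, THBS2 and THBS3), tenascin-C (TNC), SPARC, fibrillin-1 (FBN1), TGF-beta-induced protein (TGFBI), periostin (POSTN) and osteopontin (SPP1). They were taken by symbol, all 10 were found among the 27788 gene symbols of the expression table, and all 10 were among the 12210 genes expressed highly enough to be tested. Poly-A RNA was measured in BJ, a foreskin fibroblast line long established in culture, collected on day 8 after lentiviral delivery of the OSKM reprogramming factors (OCT4, SOX2, KLF4 and MYC) as the polycistronic constructs O2S and K2M. Every group was therefore sorted by flow cytometry from a reprogramming culture given the same factors. The cells had been grown in serum and then in embryonic stem cell medium on Matrigel. Whether the cells of each group took up the factors alike was not tested. Double-negative cells lacked surface CD13 and CD201, CD201-only cells were CD13-negative and CD201-positive, and double-positive cells carried both proteins. Each group has 2 libraries, 6 in all, and uninfected fibroblasts or established pluripotent cells were not analysed here.

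Fibronectin is a secreted dimer that cells assemble into fibrils by pulling on it through integrins, and it is one of the most abundant products of cultured fibroblasts. Matricellular proteins such as thrombospondins, tenascin-C, SPARC, periostin and osteopontin are secreted into the same matrix but mainly modulate how cells attach to it, rather than bearing load. Fibrillin-1 builds the microfibrils that carry elastin and store latent TGF-beta. Conversion of fibroblasts towards pluripotency is known to involve loss of mesenchymal identity, of which this matrix is a part.

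Promoter sequence is shown for 5 genes whose windows held a match to one of the motifs below, among them genes highest in double-positive cells and POSTN, highest in double-negative cells. Each line gives the 250 bases before the annotated start site, 5′ to 3′ on the gene's own strand, from RefSeq on build GRCh38.p14. Capitals mark matches to the motifs searched on both strands: the AP-1 site TGACTCA, the cyclic AMP response element TGACGTCA, the TEAD site GGAATG, the OCT octamer ATGCAAAT, the E-box CACGTG and the TATA box TATAAA. The motifs were chosen after the sequences had been seen.
FN1, chr2:215436069-215436318, minus strand: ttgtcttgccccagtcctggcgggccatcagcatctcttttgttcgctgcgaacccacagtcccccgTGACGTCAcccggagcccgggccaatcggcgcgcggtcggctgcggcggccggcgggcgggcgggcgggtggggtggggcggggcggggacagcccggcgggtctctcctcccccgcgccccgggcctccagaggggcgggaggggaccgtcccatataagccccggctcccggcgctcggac
THBS1, chr15:39580829-39581078, plus strand: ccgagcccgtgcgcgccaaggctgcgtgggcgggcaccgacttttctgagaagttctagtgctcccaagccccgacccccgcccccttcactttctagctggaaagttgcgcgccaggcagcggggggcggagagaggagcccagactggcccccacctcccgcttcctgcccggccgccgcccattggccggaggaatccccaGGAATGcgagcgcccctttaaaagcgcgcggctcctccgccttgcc
THBS2, chr6:169253847-169254096, minus strand: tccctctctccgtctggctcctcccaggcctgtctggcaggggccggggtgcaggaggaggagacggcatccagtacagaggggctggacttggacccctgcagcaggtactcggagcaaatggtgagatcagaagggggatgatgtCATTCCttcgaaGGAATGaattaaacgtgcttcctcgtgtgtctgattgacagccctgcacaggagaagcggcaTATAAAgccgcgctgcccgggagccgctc
TNC, chr9:115118158-115118407, minus strand: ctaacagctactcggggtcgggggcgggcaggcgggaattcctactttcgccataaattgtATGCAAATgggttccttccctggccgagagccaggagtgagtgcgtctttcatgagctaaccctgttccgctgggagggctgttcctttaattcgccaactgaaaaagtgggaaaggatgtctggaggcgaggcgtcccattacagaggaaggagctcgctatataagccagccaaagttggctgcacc
POSTN, chr13:37598769-37599018, minus strand: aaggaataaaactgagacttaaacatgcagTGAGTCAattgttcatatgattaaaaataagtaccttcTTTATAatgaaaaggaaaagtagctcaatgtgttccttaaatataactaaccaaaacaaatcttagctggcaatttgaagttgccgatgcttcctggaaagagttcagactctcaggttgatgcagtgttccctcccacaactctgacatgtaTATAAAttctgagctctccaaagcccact
The FN1 window held 1 cyclic AMP response element, which occurs in 1.65% of the 35116 windows of this length. The THBS1 window held 1 TEAD match and the THBS2 window 2, in opposite orientations, and windows of SPARC and FBN1 also held one, so that 4 of the 10 genes did against 11.9% of all windows. The TNC window held the octamer (1.63% of windows), and the POSTN window held an AP-1 match (4.2% of windows) and 2 TATA matches. One POSTN match reads TATAAA 29 bases before the start site, as does one in the THBS2 window. The second POSTN match, at 182 bases, reads TTTATA, on the other strand. A TATA match at any position and on either strand is in 10.7% of windows. Windows of THBS3, TGFBI and SPP1 held no match to any of these motifs, and the E-box was in 0 of the 10 genes' windows, beside 6.34% of all windows. A match describes these letters only and does not show that a factor binds there.

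Replicate libraries were close to each other. Pearson correlations of log2 values between the libraries of a group were 0.99194 to 0.99432. Sequencing depth relative to the deepest library ran from 0.727 to 1.000, read from the commonest ratio between libraries among genes under 0.15 FPKM. ANPEP, which encodes CD13, was at 36.0 ± 0.347 FPKM (fragments per kilobase of transcript, scaled to library size) in double-negative cells, 28.9 ± 0.216 in CD201-only cells and 155.3 ± 3.65 in double-positive cells (mean ± SD, n = 2, as for all such values below). PROCR, which encodes CD201, was at 17.3 ± 0.948, 47.5 ± 2.34 and 51.9 ± 0.842 FPKM in the same order. Of 9 fibroblast markers 8 were highest in double-positive cells, and THY1 in double-negative cells (1642 FPKM, beside 1370 in double-positive and 1175 in CD201-only cells). The 9 together summed to 8421 to 8525 FPKM in double-positive, 4225 to 4227 in double-negative and 3758 to 3779 in CD201-only cells. The summed level of 4 smooth muscle markers was 189.1 to 195.7 FPKM in double-positive, 91.2 to 93.4 in double-negative and 118 to 119 in CD201-only cells. That of 6 pluripotent cell markers ran the other way, at 27.9 to 28.2, 93.4 to 98.2 and 59.6 to 60.2 FPKM for those groups in turn. TDGF1 held most of it, at 18.9, 62 and 41.9 FPKM. Of these 6, 4 were highest in double-negative and 2 in CD201-only cells, NANOG and ZFP42, the latter under 1 FPKM in every library. The sum of 6 epithelial markers was 2037 to 2104 FPKM in double-positive, 3060 to 3072 in double-negative and 4007 to 4078 in CD201-only cells, nearly all of it KRT8 and KRT18. Of these 6, 4 were highest in CD201-only and 2 in double-negative cells, and CLDN4 was lowest in double-negative cells (8.67 FPKM). The sum of 5 keratinocyte markers was 42.1 to 43.6, 10.5 to 11.3 and 19.2 to 19.5 FPKM, and KRT14 held most of it in double-positive cells (29.7 FPKM). Of the 5, 2 were highest in double-positive and 3 in CD201-only cells, among them KRT1 and TP63, under 1 FPKM in every library. Of 5 blood cell markers 3, PTPRC, SPI1 and CSF1R, stayed under 1 FPKM in every library, as did 2 of 4 endothelial markers, PECAM1 and CDH5. The part of these cell-type differences in the results below was not tested, and in sorted populations read in bulk, fewer cells of one type and less RNA per cell cannot be told apart.

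The 10 genes fell into several patterns across the 3 sorted populations. Between double-negative and double-positive cells all 10 genes were called by limma (adjusted p under 0.05), 2 higher and 8 lower, where 66.6% of all tested genes were called (42.1% higher and 24.5% lower). Between CD201-only and double-positive cells 9 were called, 2 higher and 7 lower, against 58.7% of all genes (35.8% higher and 22.9% lower). Between double-negative and CD201-only cells 6 were called, 4 higher and 2 lower, against 37.9% (21.5% higher and 16.5% lower). All 10 differed among the groups by the F test, as did 73% of all genes. The libraries of the groups did not overlap for 10, 10 and 8 of the 10 genes in these comparisons, and for 83.3%, 79.3% and 71.9% of all genes, shares that leave little room for these counts to set the genes apart. A count of genes changed by at least 1 log2 unit was added after the data had been seen. Of the 10 genes 8 were lower by that much in double-negative than in double-positive cells and 0 higher, where 4.67% of all genes were lower and 2.01% higher. In CD201-only against double-positive cells 7 were lower and 0 higher, beside 4.12% and 0.68% of all genes. Between double-negative and CD201-only cells 2 were higher, FN1 and POSTN, and 1 lower, TGFBI, beside 1.03% and 1.18%. The median log2 change of the 10 was -1.32 in double-negative and -1.36 in CD201-only cells against double-positive cells, beside 0.11 and 0.08 for all genes. These comparisons share the double-positive libraries, so their likeness is not independent evidence. Log2 changes are differences of log2(FPKM + 1), the first group minus the second, and they understate fold changes of genes near 1 FPKM.

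**Figure D1:**
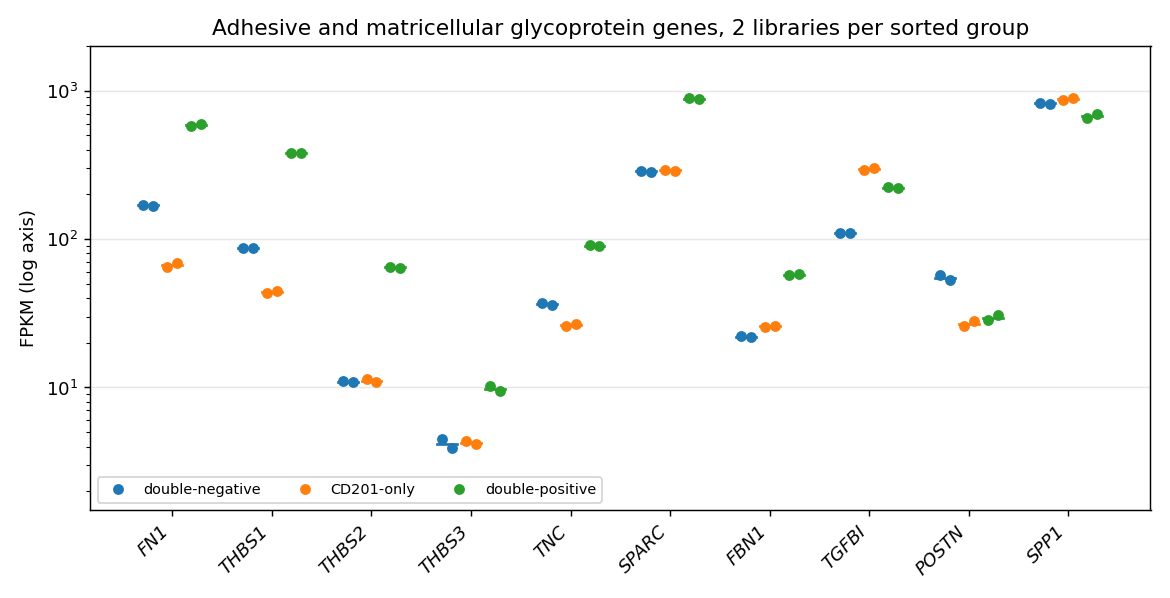
FPKM of the 10 genes on a log axis in each of the 6 libraries (points) with the group mean (bars), coloured by sorted group. The first 7 genes are highest in double-positive cells, TGFBI is highest in CD201-only cells, POSTN in double-negative cells, and SPP1 lies at 649.9 FPKM or above in every library.

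Fibronectin and thrombospondin-1 showed the widest range, and both were ordered double-positive, double-negative, CD201-only. FN1 was at 170.6 and 167 FPKM in the double-negative libraries, 65.2 and 69.2 in CD201-only and 574.6 and 595.3 in double-positive libraries. The groups did not overlap, and the double-positive mean was 3.47 times the double-negative and 8.7 times the CD201-only mean. FN1 fell by 1.79 (SE 0.035, adjusted p = 7.81e-08) in the double-negative group and by 3.10 (adjusted p = 9.53e-09) in the CD201-only group against double-positive cells. It was higher in double-negative than in CD201-only cells by a log2 change of 1.32 (95% interval 1.23 to 1.40, adjusted p = 9.43e-07), a mean 2.51 times that of CD201-only cells.

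THBS1 encodes thrombospondin-1, a trimeric glycoprotein that binds CD36 and CD47 and can activate latent TGF-beta. It was at 86.97 and 87.22 FPKM in the double-negative libraries, 43.1 and 44.45 in the CD201-only libraries and 382.7 and 382.6 in the double-positive libraries. Its order was that of FN1. Against double-positive cells THBS1 fell by 2.12 (SE 0.0255, adjusted p = 1.9e-08) in the double-negative group and by 3.10 (adjusted p = 3.88e-09) in the CD201-only group, and double-negative exceeded CD201-only cells by 0.98 (adjusted p = 8.85e-07).

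The other thrombospondins did not show this step between the CD13-negative populations. THBS2, a trimeric relative of THBS1 that lacks its activation of TGF-beta, was at 10.98 and 10.89 FPKM in the double-negative libraries, 11.34 and 10.94 in the CD201-only libraries and 65.2 and 63.57 in the double-positive libraries. The CD13-negative groups overlapped, and both lay below the double-positive group by a factor of 5.89 and 5.78. The log2 change was -2.45 (SE 0.0392, adjusted p = 4.06e-08) in the double-negative group and -2.43 in CD201-only cells against double-positive cells. Between double-negative and CD201-only cells it was -0.02 (95% interval -0.12 to 0.07, adjusted p = 0.664), beside 0.98 for THBS1.

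THBS3, a pentameric thrombospondin of the group that includes cartilage oligomeric matrix protein, was the lowest of the 10. It was at 4.479 and 3.886 FPKM in the double-negative libraries, 4.339 and 4.132 in the CD201-only libraries and 10.26 and 9.405 in the double-positive libraries. Its libraries differed by up to 14.2% within a group, the widest replicate gap among the 10. THBS3 fell by 1.07 (SE 0.0792, adjusted p = 2.62e-05) and by 1.05 (adjusted p = 3.4e-05) in the CD13-negative groups, which overlapped each other (log2 change -0.02, 95% interval -0.20 to 0.17). The annotation places MTX1 and the antisense gene THBS3-AS1 beside or across THBS3, and whether fragments were counted by strand is not given in the sources used here. MTX1 was at 16.0 FPKM in the double-negative, 17.6 in the CD201-only and 15.0 in the double-positive group.

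Tenascin-C, a hexameric glycoprotein of remodelling tissue that weakens attachment to fibronectin, followed the order of FN1 with smaller steps. TNC was at 36.86 and 35.92 FPKM in the double-negative libraries, 25.98 and 26.63 in the CD201-only libraries and 91.54 and 89.1 in the double-positive libraries. No groups overlapped. It fell by 1.29 (SE 0.0329, adjusted p = 2.3e-07) in the double-negative group and by 1.74 (adjusted p = 9.61e-08) in the CD201-only group against double-positive cells, and was higher in double-negative than in CD201-only cells by 0.45 (adjusted p = 7.04e-05).

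SPARC, a collagen-binding glycoprotein also called osteonectin, was the most abundant of the 10 in double-positive cells. It was at 287.9 and 283.9 FPKM in the double-negative libraries, 293.9 and 288.5 in the CD201-only libraries and 886.5 and 883.2 in the double-positive libraries. The double-positive libraries were about 3 times higher than the others (3.09 against double-negative and 3.04 against CD201-only cells), while the CD201-only libraries sat barely above, and without overlap with, the double-negative ones. The log2 change was -1.63 (SE 0.021, adjusted p = 1.9e-08) in the double-negative group and -1.60 in CD201-only cells against double-positive cells. Between the CD13-negative groups it was -0.03 (95% interval -0.08 to 0.02, adjusted p = 0.36).

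FBN1 was at 22.22 and 21.86 FPKM in the double-negative libraries, 25.56 and 26.14 in the CD201-only libraries and 57.64 and 57.73 in the double-positive libraries. Unlike FN1, THBS1 and TNC, it was lowest in double-negative cells. It fell by 1.35 (SE 0.0325, adjusted p = 1.72e-07) in the double-negative group and by 1.13 (adjusted p = 5.03e-07) in the CD201-only group against double-positive cells, and was lower in double-negative than in CD201-only cells by a log2 change of -0.22 (adjusted p = 0.00193).

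**Figure D2:**
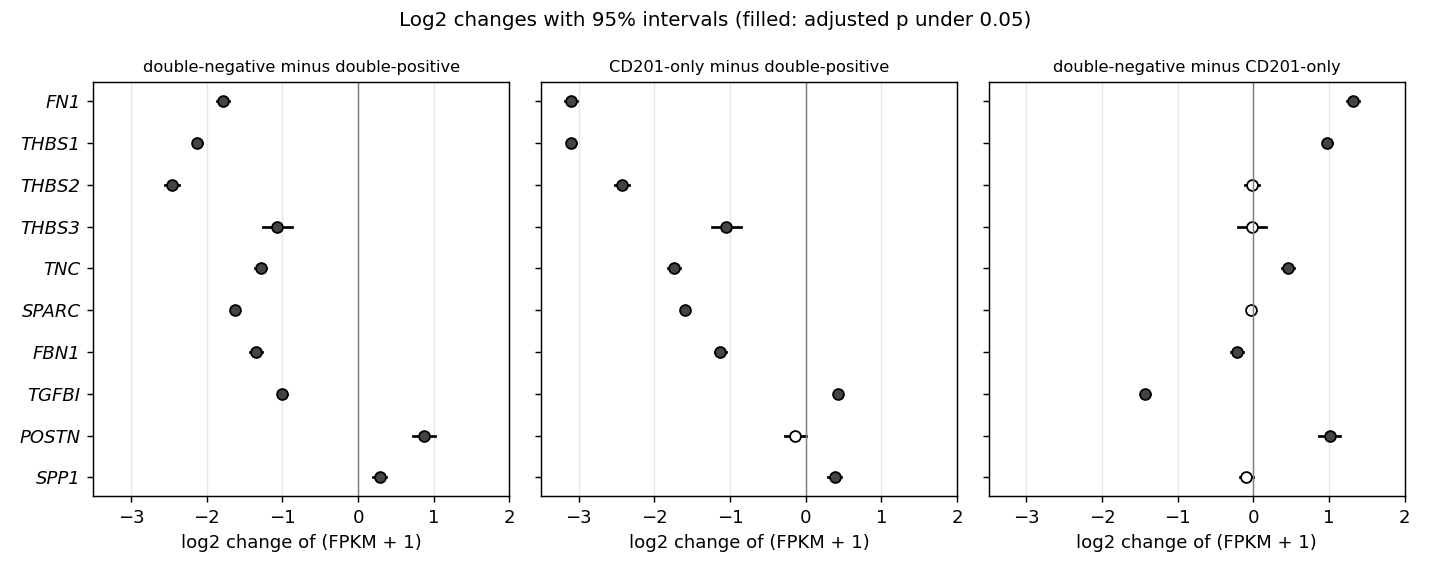
Log2 changes of (FPKM + 1) for the 10 genes in the 3 comparisons, with 95% intervals from limma as horizontal bars and filled points at an adjusted p under 0.05. FN1 and THBS1 reach -3.10 in CD201-only against double-positive cells, and the right panel parts FN1, THBS1, TNC and POSTN (above 0) from TGFBI and FBN1 (below 0).

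The remaining 3 genes were not highest in double-positive cells. TGFBI encodes an adhesive protein of fasciclin domains that binds collagens and integrins, and is named for its response to TGF-beta. It was at 110.7 and 109.7 FPKM in the double-negative libraries, 294.1 and 302.9 in the CD201-only libraries and 223.2 and 220.1 in the double-positive libraries. CD201-only libraries were the highest and double-negative libraries the lowest, with no overlap. TGFBI fell by 1.00 (SE 0.0246, adjusted p = 1.85e-07) in the double-negative group relative to double-positive cells but rose by 0.43 (adjusted p = 9.27e-06) in the CD201-only group. The change between double-negative and CD201-only cells was -1.43 (95% interval -1.49 to -1.37, adjusted p = 2.72e-07), opposite in sign to those of FN1, THBS1 and TNC.

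Periostin is the other fasciclin-domain protein of the group, and it was highest in the double-negative cells, where TGFBI was lowest. POSTN was at 56.84 and 53.09 FPKM in the double-negative libraries, 25.78 and 27.87 in the CD201-only libraries and 28.31 and 30.88 in the double-positive libraries. The double-negative mean was 1.86 times the double-positive and 2.05 times the CD201-only mean. POSTN rose by 0.87 (SE 0.0589, adjusted p = 1.66e-05) against double-positive and by 1.01 (adjusted p = 2.61e-05) against CD201-only cells. Its change between CD201-only and double-positive cells was -0.14 (95% interval -0.28 to 0.00, adjusted p = 0.084), and it was called lower when the libraries were rescaled by median ratios (-0.22, adjusted p = 0.0136), to an equal FPKM sum (-0.22, adjusted p = 0.0152) or by quantiles (-0.17, adjusted p = 0.04), and without double-positive replicate 1 (-0.20, adjusted p = 0.0409).

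SPP1 encodes osteopontin, a secreted phosphoprotein that binds integrins and CD44 and is best known from bone, macrophages and wounds. It was at 829.8 and 816.7 FPKM in the double-negative libraries, 867.8 and 892.4 in the CD201-only libraries and 649.9 and 699.1 in the double-positive libraries, the highest of the 10 genes in both CD13-negative groups. The groups did not overlap, but the span of its group means on the log2 scale was the narrowest of the 10 genes. SPP1 rose by 0.29 (SE 0.0357, adjusted p = 0.00034) in the double-negative group and by 0.38 (adjusted p = 9.66e-05) in the CD201-only group against double-positive cells. With median-ratio rescaling the rise in double-negative cells was 0.16 (adjusted p = 0.00436). Between double-negative and CD201-only cells the change was -0.10 (adjusted p = 0.0735), and it was called without double-positive replicate 1 (adjusted p = 0.0154), without double-positive replicate 2 (adjusted p = 0.0137), with only the libraries of both groups in the fit (adjusted p = 0.0135), and with median-ratio rescaling (-0.13, adjusted p = 0.0198). The summed level of the 5 blood cell markers was 31.3 to 32.8 FPKM in double-negative cells, 16.6 to 18.5 in CD201-only cells and 85.4 to 90.0 in double-positive cells, nearly all of it CD14 and CD68, and its part in the SPP1 values was not tested.

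Relatives of these genes by sequence family were expressed in part. Of 22 relatives 8 were tested. Against double-positive cells, 2 rose and 3 fell in double-negative cells (median log2 change -0.03), and 2 rose and 5 fell in CD201-only cells (median -0.29). The genes called were 62.5% and 87.5% of the 8, beside 66.6% and 58.7% of all genes. Fibrillin-2, the fibrillin of embryonic tissue, ran opposite to FBN1: FBN2 was at 190.5 ± 0.425 FPKM in double-negative cells, 179.3 ± 6.2 in CD201-only cells and 93.2 ± 4.75 in double-positive cells. FBN2 rose by 1.02 (adjusted p = 1.29e-06) and by 0.94 (adjusted p = 2.41e-06) in the CD13-negative groups. SPOCK1, a proteoglycan related to SPARC, fell from 46.7 ± 1.26 FPKM in double-positive to 15.2 ± 0.0753 in double-negative (-1.56) and 8.267 ± 0.375 in CD201-only cells (-2.36). IBSP, bone sialoprotein, which belongs to the same family as SPP1, fell from 9.099 ± 0.125 to 3.776 ± 0.126 FPKM (-1.08) and to 0.8305 ± 0.135 FPKM (-2.47), whereas SPP1 rose. The other called relatives, named after their values were seen, were FNDC3A (higher) and SMOC1 (lower) in double-negative cells, and SMOC1 (higher), FSTL1, SPOCK2 and FNDC3A (lower) in CD201-only cells. Leaving out double-negative replicate 1 (adjusted p = 0.0797) or double-positive replicate 1 (adjusted p = 0.0672) ended the call of SMOC1 in double-negative cells. In CD201-only cells, leaving out CD201-only replicate 2 ended that of SPOCK2 (adjusted p = 0.0564), and leaving out CD201-only replicate 1 (adjusted p = 0.0845) or double-positive replicate 1 (adjusted p = 0.0542) ended that of FNDC3A.

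The CCN family of matricellular proteins had 6 genes in the table, of which 3 were tested. All 3 fell in both CD13-negative groups against double-positive cells, with medians of -0.37 and -0.68, where 24.5% and 22.9% of all genes were called lower. The third, NOV (CCN3), is named after its values were seen, and was at 3.778 ± 0.196 FPKM in double-positive cells and under 1 FPKM in the other groups. CYR61 (CCN1) was at 232.6 ± 1.21 FPKM in double-negative cells, 208.8 ± 0.424 in CD201-only cells and 301.2 ± 1.34 in double-positive cells. CTGF (CCN2) was at 168.6 ± 1.27, 116.2 ± 0.0141 and 186.7 ± 1.3 FPKM, and its fall of 0.68 (adjusted p = 8.87e-07) in the CD201-only group was wider than its fall of 0.15 (adjusted p = 0.000959) in double-negative cells, with a change of 0.53 (adjusted p = 6.27e-06) between those groups. With median-ratio rescaling the change of CTGF in double-negative cells was -0.27 (adjusted p = 5.62e-05).

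Cell-surface receptors of the glycoproteins did not move as a block. Of 18 receptor genes 14 were tested, and 4 rose and 9 fell in double-negative cells (median -0.63), and 2 rose and 10 fell in CD201-only cells (median -0.26), each against double-positive cells. Called genes made up 92.9% and 85.7% of the 14, beside 66.6% and 58.7% of all genes. ITGA5, whose product pairs with integrin beta-1 as the main fibronectin receptor, fell from 112 ± 3.01 FPKM in double-positive to 40.4 ± 0.862 in double-negative (-1.45) and 42.0 ± 0.0177 in CD201-only cells (-1.39). ITGA3, a laminin receptor that also binds thrombospondin-1, fell from 94.97 ± 1.55 to 27.5 ± 0.206 (-1.75) and 34.6 ± 0.271 FPKM (-1.43), and ITGA4 from 28.3 ± 1.53 to 11.9 ± 0.381 (-1.19) and 10.1 ± 1.31 FPKM (-1.40). ITGB3, the beta chain of a vitronectin and osteopontin receptor, fell from 6.831 ± 0.078 to 2.193 ± 0.0439 FPKM (-1.29) in double-negative and 1.645 ± 0.0586 FPKM (-1.57) in CD201-only cells. ITGB1, the shared beta chain, was highest in double-negative cells at 176.7 ± 1.42 FPKM, beside 105.8 ± 0.0587 in CD201-only cells and 127 ± 12.8 in double-positive cells. It was higher in double-negative cells than in CD201-only cells by 0.73 (adjusted p = 0.000113) and than in double-positive cells by 0.48 (adjusted p = 0.000344). Receptors of SPP1 and THBS1 outside the naming rule are given for completeness, after their values were seen. CD44, which binds osteopontin, was at 102 ± 0.381, 93.2 ± 3.28 and 169.3 ± 1.95 FPKM in double-negative, CD201-only and double-positive libraries, lower in both CD13-negative groups. CD47, which binds thrombospondin-1, was at 5.834 ± 0.206, 5.58 ± 0.45 and 6.246 ± 0.145 FPKM and was called in none of the 3 comparisons (adjusted p = 0.316, 0.122 and 0.561). With median-ratio rescaling CD47 was called lower than in double-positive cells in both CD13-negative groups (-0.19, adjusted p = 0.0441, and -0.22, adjusted p = 0.0316), and with an equal FPKM sum in CD201-only cells (-0.22, adjusted p = 0.0319).

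CD36, a scavenger receptor that binds thrombospondin-1, was at 14.6 ± 0.878 FPKM in double-negative cells, 3.844 ± 0.215 in CD201-only cells and 4.807 ± 0.59 in double-positive cells. It rose in double-negative cells by 1.43 (adjusted p = 9.48e-06) against double-positive and by 1.69 (adjusted p = 1.5e-05) against CD201-only cells, so this receptor and THBS1 were not highest in the same population. The fall of CD36 in CD201-only against double-positive cells was -0.26 (adjusted p = 0.0366). That fall was not called without the filter on low values (adjusted p = 0.086) or with only both groups fitted (adjusted p = 0.0598). Nor was it called without CD201-only replicate 1 (-0.21) or 2 (-0.30), or without double-positive replicate 2 (-0.15). Leaving out either double-negative library also ended the call, with the change unmoved. SDC4, a heparan sulfate proteoglycan that acts with integrins on fibronectin, was at 67.5 ± 2.08, 106.2 ± 1.3 and 98.2 ± 1.3 FPKM, with a change of -0.65 (adjusted p = 1.05e-05) between double-negative and CD201-only cells. Its rise in CD201-only against double-positive cells was 0.11 (adjusted p = 0.0172). That rise was not called with median-ratio (0.02, adjusted p = 0.547), equal-sum (0.02, adjusted p = 0.565) or quantile rescaling (0.07, adjusted p = 0.0913). Its call was also lost without the variance trend (adjusted p = 0.0677). The same held without CD201-only replicate 2 (0.10) or without double-positive replicate 2 (0.10).

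**Figure D3:**
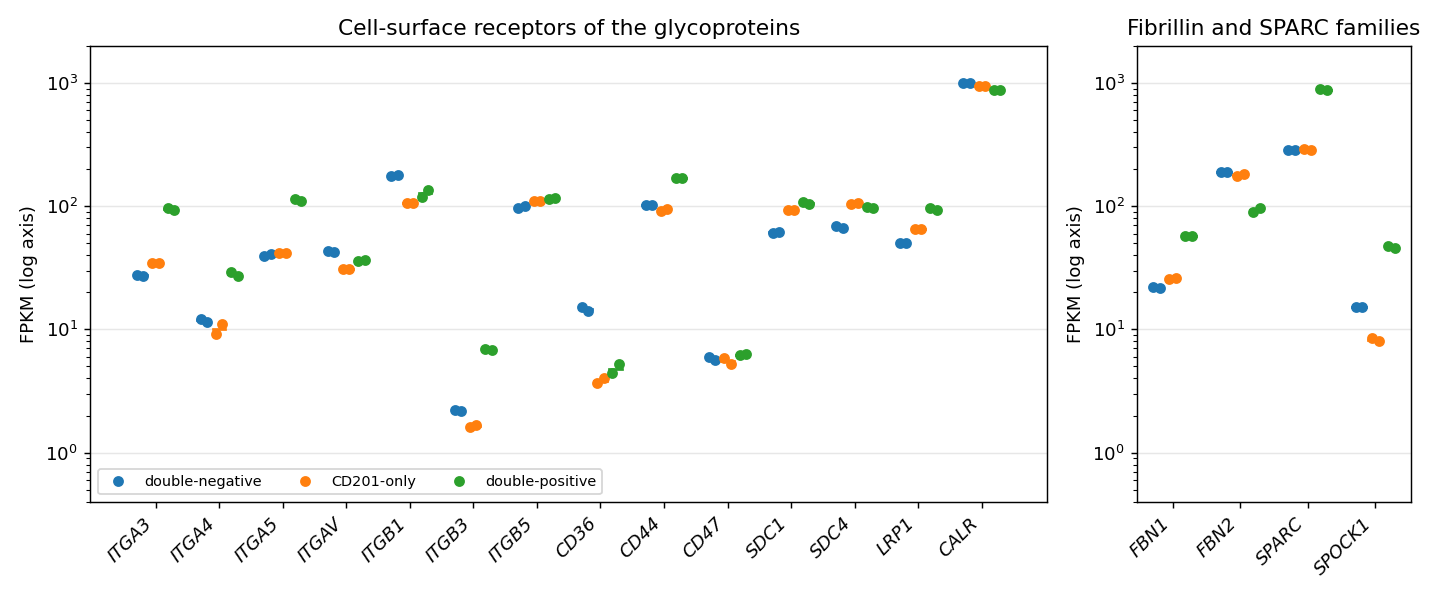
FPKM on a log axis in each library (points) with group means (bars) for the 14 tested receptor genes (left) and for the fibrillins, SPARC and SPOCK1 (right). ITGA3, ITGA4, ITGA5 and ITGB3 are highest in double-positive cells, ITGB1 and CD36 in double-negative cells, and FBN1 and FBN2 run in opposite directions.

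Microfibril and elastic fibre partners of fibrillin-1 fell in most cases. All 18 tested genes were called in double-negative against double-positive cells, 2 higher and 16 lower (median -0.97). In CD201-only cells 2 were again higher and 16 lower (median -0.90). Of all tested genes 66.6% and 58.7% were called in these comparisons, 24.5% and 22.9% as lower. LTBP2, a matrix protein that binds fibrillin-1, fell from 43.4 ± 0.331 FPKM to 7.859 ± 0.0234 in double-negative (-2.32) and 6.356 ± 0.103 in CD201-only cells (-2.59). Elastin (ELN) fell from 17.5 ± 0.414 to 3.185 ± 0.209 (-2.14) and 5.421 ± 0.185 FPKM (-1.52), EFEMP1, a fibulin, by 1.83 in CD201-only cells, and FBLN2, another fibulin, by 1.75 in double-negative cells. Between double-negative and CD201-only cells 6 rose and 11 fell, beside 21.5% and 16.5% of all genes. LOX, which cross-links collagen and elastin, was at 144.3 ± 2.54 FPKM in double-negative cells, 40.9 ± 1.88 in CD201-only cells and 100 ± 0.428 in double-positive cells (1.79, adjusted p = 3.06e-07, in double-negative against CD201-only cells). MFAP4, a microfibril-associated glycoprotein, ran the other way at 134 ± 1.99, 410.8 ± 3.73 and 256 ± 1.78 FPKM (-1.61, adjusted p = 1.71e-07).

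Genes that assemble, cross-link or cleave the matrix were lower in double-negative cells in 11 of 13 cases and higher in 1 (median -1.12), and lower in CD201-only cells in 9 and higher in 3 (median -1.03), against double-positive cells. In each comparison 92.3% of the 13 were called, beside 66.6% and 58.7% of all genes. Among the 3 higher in CD201-only cells, PLAT (0.11) was not called with median-ratio (0.02, adjusted p = 0.666), equal-sum (0.02, adjusted p = 0.687) or quantile rescaling (0.06, adjusted p = 0.128). Its call was also lost without the variance trend (adjusted p = 0.0843). The same held without CD201-only replicate 1 (0.11) or 2 (0.11), or without double-positive replicate 2 (0.07). PLAU, urokinase, fell from 212.7 ± 3.69 FPKM in double-positive cells to 47.1 ± 1.89 for double-negative cells (-2.15) and 42.7 ± 0.784 for CD201-only cells (-2.29). TGM2, a transglutaminase that cross-links fibronectin, was at 20.7 ± 0.588 FPKM in double-negative cells, 85.7 ± 0.688 in CD201-only cells and 115.1 ± 1.55 in double-positive cells, with a change of -1.996 (adjusted p = 1.71e-07) between double-negative and CD201-only cells, so it was lower where FN1 was higher within the CD13-negative cells.

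Of 22 other matrix glycoproteins 19 were tested, and 5 rose and 12 fell in double-negative cells (median -0.33), and 4 rose and 10 fell in CD201-only cells (median -0.25), against double-positive cells. That is 89.5% and 73.7% of the 19 called, beside 66.6% and 58.7% of all genes. ECM1, a matrix protein that binds fibronectin and perlecan, fell from 113.8 ± 5.99 to 25.9 ± 0.366 (-2.09) and 43.2 ± 2.33 FPKM (-1.38). MFGE8, an integrin-binding secreted protein also called lactadherin, was highest in CD201-only cells, at 1270.0 ± 9.33 FPKM beside 620.2 ± 0.417 in double-negative and 834.8 ± 1.87 in double-positive cells. Its change between double-negative and CD201-only cells was -1.03 (adjusted p = 2.9e-07).

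Of 18 TGF-beta ligands, receptors and response genes, 3 rose and 11 fell in double-negative cells (median -0.76), and 2 rose and 9 fell in CD201-only cells (median -0.27), against double-positive cells. The genes called were 77.8% and 61.1% of this list, beside 66.6% and 58.7% of all genes. SKIL and TGIF1, named after their values were seen, rose in double-negative (0.56 and 0.56) and in CD201-only cells (0.32 and 0.30). The ligand TGFB2 fell from 7.928 ± 0.243 to 1.542 ± 0.0298 (-1.81) and 2.271 ± 0.204 FPKM (-1.45), and INHBA, an activin subunit, from 16.5 ± 0.0933 to 5.162 ± 0.604 (-1.51) and 4.022 ± 0.189 FPKM (-1.80). Across the 7 companion lists the share called against double-positive cells was 62.5% to 100% in double-negative and 61.1% to 100% in CD201-only cells. Several of these lists hold genes that were already known to be lower in the CD13-negative groups when the lists were made, so their direction is a description.

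**Figure D4:**
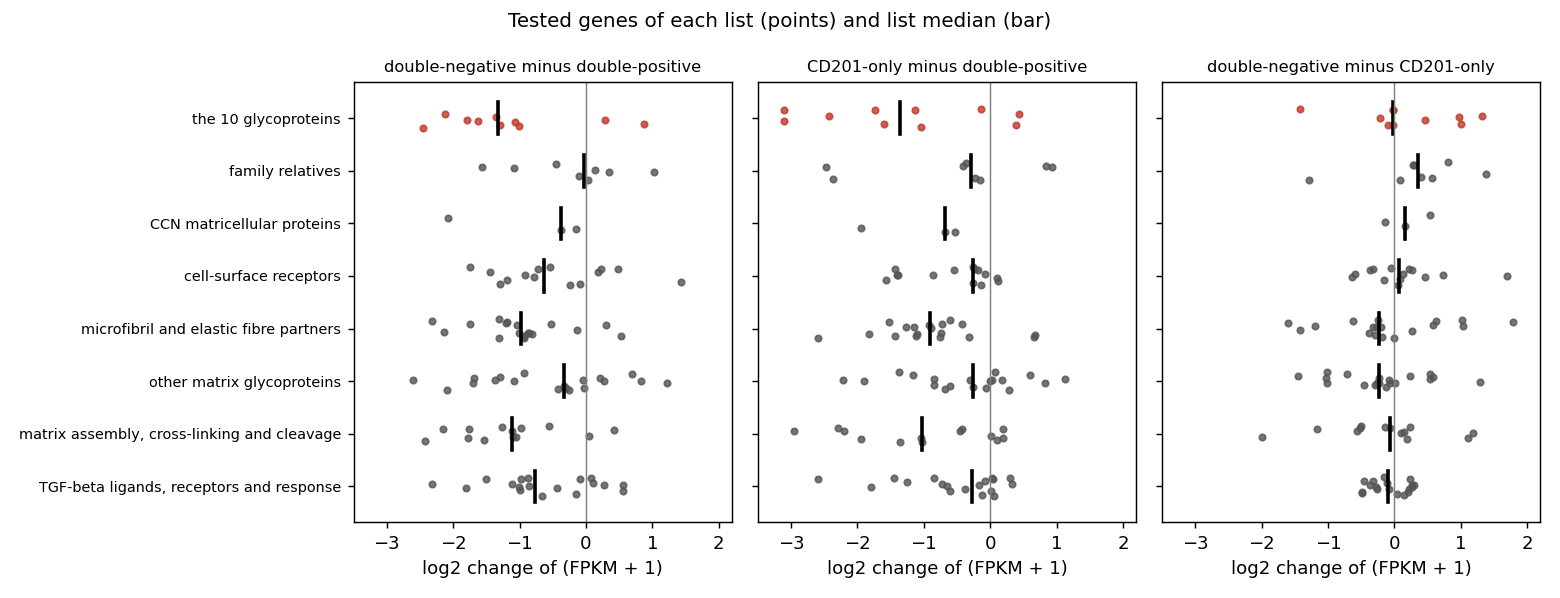
Log2 changes of (FPKM + 1) for each tested gene (points) and the list median (bars) in the 10 glycoprotein genes (red) and 7 companion lists, in the 3 comparisons. Medians of the 10 genes are -1.32 and -1.36 against double-positive cells and -0.02 between the CD13-negative groups.

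The genes whose profiles over the 6 libraries lay nearest to each glycoprotein gene were found among 8271 others with a mean of at least 5 FPKM, as the root mean square difference of centred log2 values. Among the 3 genes nearest to FN1 were LOXL2, a lysyl oxidase family enzyme (difference 0.131), and GREM1, an antagonist of bone morphogenetic proteins (0.131). LOXL2 was nearest to THBS1 (0.0402), at 73.2 FPKM in the double-negative, 34.4 in the CD201-only and 310.3 in the double-positive group. ADAMTS14, a protease that processes procollagen, was nearest to THBS2 (0.0617) and SYNJ2, a phosphoinositide phosphatase, to THBS3 (0.0436).

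F2R, the thrombin receptor, was nearest to TNC (0.0617), GPC1, glypican-1, to SPARC (0.0426) and FBLN1, fibulin-1, to FBN1 (0.0256). TGFBI lay nearest to PPP1R3C, a regulator of glycogen synthesis (0.0853), and BMP4, a signalling ligand (0.0867), and also to MFAP4 (0.106). BMP4 was at 3.82 FPKM in the double-negative, 11.18 in the CD201-only and 7.753 in the double-positive group. POSTN lay nearest to STAMBPL1, a deubiquitinase (0.0321), and the 3 nearest also held SCUBE2, a secreted protein (0.0618), neither of them among the lists used here. SPP1, whose group means spanned less than 1 log2 unit, was not matched. With 3 groups many genes share a profile, so nearness is a description.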

How the data were processed

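Poly-A RNA-seq was measured in 6 libraries of BJ cells, 2 for each of 3 sorted groups, which were assigned from the labels. The authors deposited 1 table of FPKM values per gene symbol. It was made with STAR and Cuffnorm per the submitters' processing notes, which name the builds hg19 and GRCh37. Not given in the sources used here are their versions, the annotation, the strand setting and any rescaling. Of the value columns 0 were left unassigned. Labels do not say that the libraries came from separate cultures, so p-values measure only the spread between these libraries, which may be technical.

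Values were taken as log2(FPKM + 1), and the 12210 genes averaging 1 FPKM or more were fitted in limma 3.58.1 (R 4.3.3) with 1 coefficient per group and a variance trend. Residual degrees of freedom were 3, and the prior added 3.95. Adjustment by Benjamini-Hochberg covered all tested genes, with 0.05 as the limit for a call. Counts were not used here; relative depth came from the commonest ratio between libraries among genes under 0.15 FPKM, and absolute depth is unknown.

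From each of 7 companion lists, up to 3 called genes per comparison could be named, those with the largest changes among genes reaching 5 FPKM. Some genes that this rule or the search for near profiles would name are not reported here. The members, lists and rules were chosen with earlier results of these data known. Promoter windows came from RefSeq (GRCh38.p14), matched by symbol for all 10 genes, with 2 windows for THBS3. Neighbouring genes were those within 1000 bases in the same annotation. Other steps used pandas 2.3.3 under Python 3.11.15, numpy 2.4.6, and for plots matplotlib 3.10.9. Alternatives covered the pseudocount, the filter, 3 rescalings, the variance model, the libraries fitted, a replicate block and each library left out.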

Additional observations from a re-analysis of the deposited data

How the results depend on the processing

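Values were recomputed under up to 17 alternatives, fewer where a gene fell below the filter (13 at the fewest, for NOV) and 16 for the F test. Of 510 recomputed changes of the 10 glycoprotein genes, 0 lost a call or reversed a called direction, and 8 gained a call, all of POSTN (CD201-only against double-positive cells) or SPP1 (double-negative against CD201-only cells). The number called stayed 10 between double-negative and double-positive cells, and was 9 to 10 and 6 to 7 in the other comparisons. For companion genes named by the rule, and for CD44, CD47, NOV, SMOC1 and SPOCK2, added after seeing the data, 2110 changes were recomputed. Of these 59 lost a call, 7 gained one and 1 reversed. ITGAV, ITGB5, SDC1, LRP1, CALR, SKIL and TGIF1 were not recomputed. Without double-negative replicate 2, 6 rather than 8 genes, and without double-positive replicate 1, 7, were lower by at least 1 log2 unit in double-negative than in double-positive cells. FN1 and POSTN were higher by at least 1 log2 unit in double-negative than in CD201-only cells, and only 1 of the 10 genes was without double-negative replicate 1, without CD201-only replicate 1 or with median-ratio rescaling. In CD201-only against double-positive cells the change of THBS3 was -1.05, and -0.99 at its smallest over the alternatives, so it did not always reach 1 log2 unit. Median-ratio rescaling moved the all-gene median change (double-negative minus double-positive) from 0.11 to 0.00 and the share of higher calls from 63.2% to 48%, and in the other comparisons from 61% to 47.5% and from 56.6% to 47.6%. Under it FSTL1, a relative of SPARC, went from 0.04 (adjusted p = 0.241) to -0.0863 (adjusted p = 0.0242) when double-negative were set against double-positive libraries. An equal FPKM sum gave a share of 47% higher among the genes called in CD201-only against double-positive cells. Without double-negative replicate 1, the genes called between double-negative and CD201-only cells dropped from 4632 to 2888, and without replicate 2 to 3040. Left-out fits leave 1 library in a group, which is then assumed to vary like the others.

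The replicate numbers are not stated to pair libraries. Deviations of same-numbered libraries correlated at 0.0761, -0.0727 and 0.117 over the 3 pairs of groups, so the numbers were not taken as pairs. With a replicate block 10, 9 and 6 of the glycoprotein genes were called in the comparisons in the order above, and 10 differed among the groups by the F test.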

Other observations

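The composition of the glycoprotein transcripts differed between the sorted populations. The 10 genes summed to 1617 and 1590 FPKM in the double-negative, 1657 and 1693 in the CD201-only and 2970 and 3031 in the double-positive libraries. SPP1 made up 51.3% and 51.4% of that sum in double-negative, 52.4% and 52.7% in CD201-only and 21.9% and 23.1% in double-positive libraries. Without SPP1 the sums were 787.5 and 773.4, 789.3 and 800.8, and 2320 and 2332 FPKM, so the CD13-negative groups, which differ in FN1, THBS1, TGFBI and POSTN individually, lay close together in total.

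Ranked by FPKM, the first 5 of the 10 genes in double-positive cells ran from SPARC (884.8) through SPP1 (674.5), FN1 (584.9) and THBS1 (382.7) to TGFBI (221.7). In CD201-only cells TGFBI (298.5 ± 6.24) and SPARC (291.2 ± 3.81) lay below SPP1 and above FN1 (67.2 ± 2.87). POSTN (26.8 ± 1.48), TNC (26.3 ± 0.461) and FBN1 (25.9 ± 0.405) could not be ranked there, since their libraries overlapped. In double-negative cells POSTN (55.0 ± 2.65) lay above TNC (36.4 ± 0.665).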
